A study of Drosophila melanogaster with 15 samples.

Results

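The genes described here encode the nuclear subunits of the respiratory chain and of the mitochondrial ATP synthase. They were chosen by name: every nuclear gene of the count files whose current symbol begins with ND-, SdhA, SdhB, SdhC, SdhD, UQCR-, ATPsyn, or COX and a digit, at a mean level of at least 1 RPKM over the 3 libraries. RPKM is a read count scaled to transcript length and to the library total, and the transcript with the most reads stood for each gene. Of 85 such genes in the files, 66 reached that level, out of 7485 genes that did so in all, and only those are meant by "subunit genes" below. They comprise 33 genes of complex I, 4 of complex II, 6 of complex III, 10 of complex IV and 13 of the ATP synthase (complex V). The X chromosome carries 12 of them, the major autosomal arms 52 and the small chromosome 4 carries 2.

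Complexes I, III and IV pass electrons from NADH to oxygen and pump protons out of the mitochondrial matrix, complex II feeds in electrons from succinate, and the ATP synthase uses the returning protons to make ATP. Each complex is assembled from many different subunits in fixed proportions, and apart from complex II each also contains subunits made inside the mitochondrion. In male Drosophila cells the MSL complex, with its subunit MSL2 and the roX RNAs, binds the single X chromosome and raises the output of its genes. Subunits of 1 complex can therefore come from genes with and without this regulation.

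Messenger RNA was sequenced from SL2 cells, a male line of embryonic origin, after 6 days of RNA interference (RNAi) at 25 °C in 1 MSL2 RNAi library, 1 CLAMP RNAi library and 1 control RNAi library. CLAMP is a zinc finger protein, and RNAi lowers the transcript that a double-stranded RNA matches. The sequence that the control RNAi was directed against is not named in the labels. The other 12 of the 15 samples, chromatin immunoprecipitations and their inputs, were not analysed here. With 1 library per group there was no replicate and no test: "lower" and "higher" describe these libraries, and a given value cannot be told apart from a difference between single cultures.

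The library totals behind the RPKM values were 67844405 for MSL2 RNAi, 68301197 for CLAMP RNAi and 68036170 for control RNAi. The RNAi targets checked the labels, with msl-2 at 5.16, 19.4 and 19.8 RPKM in MSL2, CLAMP and control RNAi and Clamp at 66.9, 19.8 and 66.2 RPKM. SL2 cells have properties of hemocytes, the blood cells of the fly, and all 7 hemocyte markers passed the level filter. Their summed level was 3832 RPKM in MSL2 RNAi, 5256 in CLAMP RNAi and 3314 in control RNAi. The largest part of it came from SPARC, at 2142, 3241 and 2013 RPKM. At least 1.5-fold higher than control were 3 of the 7 after MSL2 RNAi, beside 2.53% of all tested genes. After CLAMP RNAi 3 of the 7 were, beside 1.5%, and 0 were 1.5-fold lower in either. Summed levels of the muscle, testis, ovary germline and fat body markers lay between 0.244 and 3.84 RPKM, and those of 3 neuron markers between 12.1 and 13.2 RPKM, in every library. In such bulk samples fewer cells of a type and less RNA per cell cannot be told apart, and the part of the hemocyte marker levels in the values below was not tested. All 37 mitochondrially encoded gene models were listed at 0 reads in every library, so the subunits made inside the mitochondrion were not measured.

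The subunit genes were well expressed. Their median level was 71.9 RPKM in MSL2 RNAi, 81.7 in CLAMP RNAi and 82.0 in control RNAi, against 20.3, 20.4 and 21.6 RPKM over all tested genes in the same order. With all tested genes sorted into 10 equal classes of level, 29 of the 66 fell into the highest class. A subunit gene had between 64 and 76967 reads in a library, and together they took 0.747%, 0.775% and 0.750% of the library totals of MSL2, CLAMP and control RNAi. The highest were ATPsyngamma, the rotor shaft of the ATP synthase (CG7610, arm 3R), at 629, 606 and 562 RPKM, and ATPsynbeta, its catalytic subunit (CG11154, chromosome 4), at 564, 566 and 654 RPKM. For the 30 genes with several transcripts past the filter, the transcripts of a gene differed in their log2 ratio after MSL2 RNAi by at most 0.35 (ND-MWFE). Subunits of a single complex were far from equal in mRNA. In control RNAi the genes of complex I spanned 6.48 RPKM (ND-AGGG) to 141 RPKM (ND-MNLL), and those of complex III spanned 42.7 RPKM (UQCR-6.4) to 264 RPKM (UQCR-14).

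After MSL2 RNAi, X-linked subunit genes were lower as a group and autosomal ones were not. Over the 12 X-linked genes the log2 ratio to control, taken on RPKM plus 0.1 throughout, had a median of −0.32 (range −0.65 to −0.10), and it was 0.05 over the 52 on the major autosomal arms (−0.98 to 0.74). The difference of −0.37 corresponds to a ratio of 0.775, close to the −0.36 between all 1292 X-linked and 6062 autosomal genes tested. All 12 X-linked subunit genes stood below the median of all autosomal genes, as did 91.5% of all X-linked genes, and so did 24 of the 52 autosomal ones (50% by definition). All 12 also lay below the median of the autosomal subunits of their own complex, by 0.08 to 0.71 on the log2 scale. The sizes were like those of the rest of the X. At least 1.5-fold lower were 2 of 12, against 14.9% of all X-linked genes, and at least 1.2-fold lower were 8 of 12, against 61.1%. Of the 2, ND-ASHI lay just past the 1.5-fold mark and was short of it with a pseudocount of 1 (−0.56) and with upper-quartile scaling (−0.57), which left 1 of 12.

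**Figure D1:**
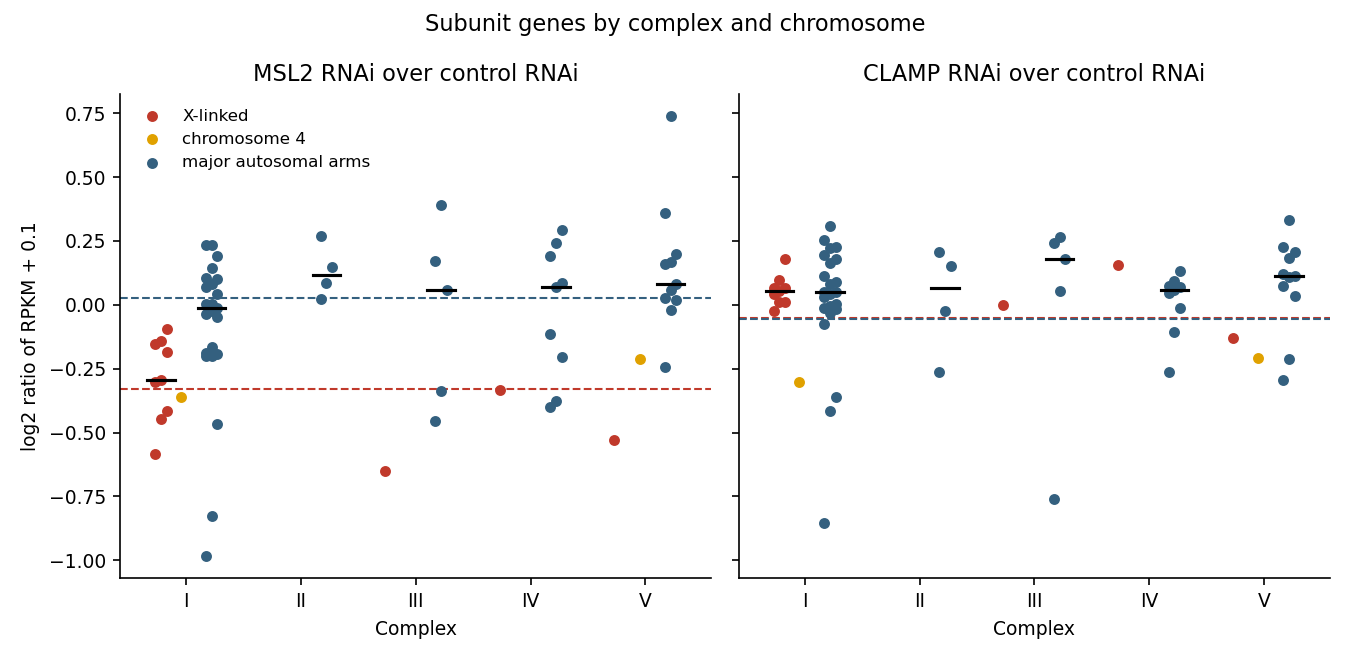
Log2 ratio of RPKM plus 0.1 RPKM for each of the 66 subunit genes (points), by complex and chromosome, for MSL2 RNAi over control RNAi (left) and CLAMP RNAi over control RNAi (right). Black bars are medians of groups with more than 1 gene, and dashed lines are the medians of all tested X-linked (red) and autosomal (blue) genes. After MSL2 RNAi the X-linked points lie between −0.65 and −0.10, and after CLAMP RNAi between −0.13 and 0.18.

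Complex I holds 9 of the X-linked genes, so the comparison within a complex is best filled there. Their median log2 ratio after MSL2 RNAi was −0.29 (range −0.59 to −0.10), against −0.01 over 23 autosomal subunits (−0.98 to 0.24), a difference of −0.28. The summed level of the 9 was 537 RPKM in MSL2 RNAi, 681 in CLAMP RNAi and 655 in control RNAi, and that of the autosomal subunits was 1398, 1486 and 1394 RPKM.

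The nuclear core subunits of complex I carry its flavin and iron-sulphur clusters and its quinone site, and those described here come from the X and from the autosomal arms. On the X, ND-75 (CG2286), the counterpart of human NDUFS1, had 68.6 RPKM in MSL2 RNAi, 75.4 in CLAMP RNAi and 73.3 in control RNAi. ND-24 (CG5703), the counterpart of NDUFV2, had 41.0, 56.7 and 54.7 RPKM. ND-20 (CG9172), the counterpart of NDUFS7, had 82.1, 105 and 101 RPKM. MSL2 RNAi was the lowest library for each of them, but by very different amounts. The read ratio to control was 0.935 for ND-75 (exact 95% counting interval 0.913 to 0.958), 0.750 for ND-24 (0.715 to 0.787) and 0.816 for ND-20 (0.786 to 0.847). ND-75 was the X-linked subunit gene closest to control, although with 12752 reads in MSL2 RNAi it was also the most deeply counted one.

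The autosomal core subunits lay slightly above control after MSL2 RNAi. ND-51 (CG9140, arm 2L), the counterpart of NDUFV1 and partner of ND-24 in the flavin-bearing part, had 105, 103 and 101 RPKM. ND-30 (CG12079, arm 3L), the counterpart of NDUFS3, had 108, 117 and 100 RPKM, and ND-23 (CG3944, arm 3R), the counterpart of NDUFS8, had 97.4, 102 and 94.6 RPKM. Their log2 ratios to control after MSL2 RNAi were 0.07, 0.11 and 0.04.

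The other 6 X-linked genes of complex I encode accessory subunits. ND-ASHI (CG3192) had 17.8 RPKM in MSL2 RNAi, 26.3 in CLAMP RNAi and 26.7 in control RNAi, a log2 ratio of −0.59 after MSL2 RNAi that was the lowest among X-linked genes of the complex. ND-MNLL (CG18624) had 104, 142 and 141 RPKM, or −0.45. ND-B16.6 (CG3446), the counterpart of human NDUFA13, had 71.7, 92.6 and 88.5 RPKM, or −0.30. These 3 stood at least 1.2-fold below control after MSL2 RNAi. The remaining 3 lay closer to control, with ND-B14.5A (CG3621) at 41.7, 47.8 and 47.4 RPKM, ND-B18 (CG5548) at 60.9, 72.4 and 67.8 RPKM, and ND-18 (CG12203), the counterpart of NDUFS4, at 50.0, 62.5 and 55.2 RPKM. Their log2 ratios after MSL2 RNAi were −0.19, −0.16 and −0.14.

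**Figure D2:**
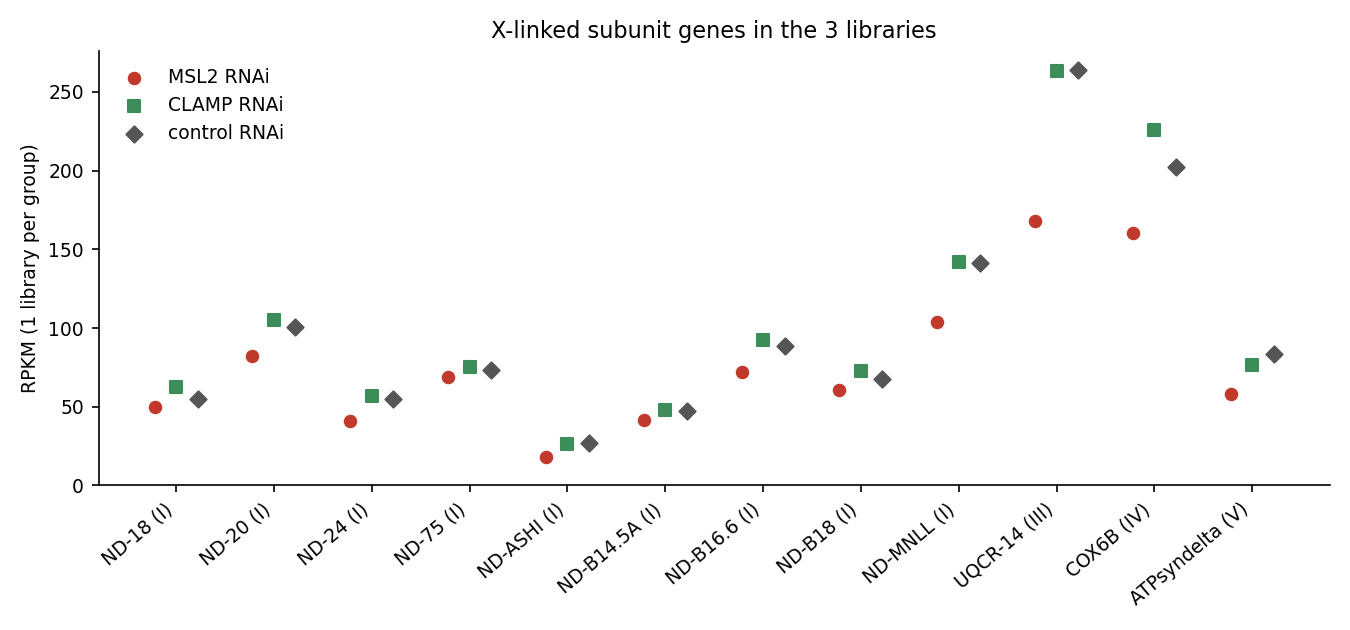
RPKM of the 12 X-linked subunit genes, with the complex in brackets, in the MSL2 RNAi (circles), CLAMP RNAi (squares) and control RNAi (diamonds) libraries, 1 library each. The MSL2 RNAi point is the lowest of the 3 for every gene, with the widest gap at UQCR-14 (168, 264 and 264 RPKM) and a narrow one at ND-75 (68.6, 75.4 and 73.3 RPKM).

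Complexes III, IV and V each have a single X-linked gene among those chosen, so these are comparisons of 1 gene with the autosomal subunits. UQCR-14 (CG3560), the counterpart of human UQCRB in complex III, had 5525 reads in MSL2 RNAi, 8714 in CLAMP RNAi and 8689 in control RNAi. Its read ratio after MSL2 RNAi was 0.638 (0.616 to 0.660), the lowest of the 12, with a counting interval far below 1. The 5 autosomal subunits of complex III had log2 ratios between −0.46 and 0.39. The core protein genes UQCR-C1 (CG3731, arm 3R) and UQCR-C2 (CG4169, arm 3L) were at the upper end, with 211 and 146 RPKM in MSL2 RNAi against 161 and 130 RPKM in control RNAi. The read ratio of UQCR-C1 was 1.31 after MSL2 RNAi, the highest among subunit genes with a mean above 10 RPKM. UQCR-11 and UQCR-6.4, both short transcripts, made up the lower end.

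COX6B (CG14235), an accessory subunit of cytochrome c oxidase (complex IV), had 160 RPKM in MSL2 RNAi, 226 in CLAMP RNAi and 202 in control RNAi. Its log2 ratio after MSL2 RNAi was −0.33, against a median of 0.07 over 9 autosomal subunits (range −0.40 to 0.29). The difference of −0.40 was −0.22 at a filter of 5 RPKM or without like paralogs, since COX5BL and COX6AL2, at low levels, then leave the autosomal median. Those autosomal genes overlapped it: COX7C (CG2249, arm 2R) was at −0.40 and COX8 (CG7181, arm 3L) at −0.38. COX5A (CG14724, arm 3R), the most abundant subunit mRNA of the complex, had 428, 397 and 362 RPKM in MSL2, CLAMP and control RNAi, and COX4 (CG10664, arm 2L) had 277, 282 and 264 RPKM. The X-linked value thus stood low among its complex without being outside the range of the autosomal ones.

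The catalytic head of the ATP synthase and its central stalk are together built from subunits whose genes lie on the X, on chromosome 4 and on the autosomal arms, with differing values. ATPsyndelta (CG2968), the X-linked subunit of the central stalk, had 58.0 RPKM in MSL2 RNAi, 76.6 in CLAMP RNAi and 83.7 in control RNAi. The epsilon subunit of the same stalk is encoded by the X-linked gene sun (stunted, CG9032), which the naming rule does not catch. It had 572 reads in MSL2 RNAi, 1084 in CLAMP RNAi and 1130 in control RNAi, so both X-linked stalk subunits were lowest in MSL2 RNAi. Their log2 ratios after MSL2 RNAi were −0.53 for ATPsyndelta and −0.97 for sun. On the arms, the alpha subunit gene blw (bellwether, CG3612, arm 2R, also outside the naming rule) had 483, 458 and 426 RPKM, and ATPsyngamma was given above. Their log2 ratios were 0.18 and 0.16. ATPsynbeta on chromosome 4 stood between, at −0.21 after MSL2 RNAi and −0.21 after CLAMP RNAi.

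The remaining autosomal subunits of complex V are those of the peripheral stalk and of the membrane part, without the paralogs given below. All stayed within 1.2-fold of control, at log2 −0.24 to 0.20 after MSL2 RNAi and −0.21 to 0.22 after CLAMP RNAi. ATPsynC (CG1746, arm 3R), the subunit of the proton-driven ring, had 361 RPKM in MSL2 RNAi, 386 in CLAMP RNAi and 366 in control RNAi. ATPsynO (CG4307), which joins head and peripheral stalk, had 165, 178 and 163 RPKM. ATPsynB (CG8189), of the peripheral stalk, had 142, 143 and 124 RPKM and was at 0.20 and 0.21 after MSL2 and CLAMP RNAi. ATPsynG (CG6105, arm 2L) was the lowest autosomal gene of the complex after MSL2 RNAi, at −0.24, and was at −0.21 after CLAMP RNAi.

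Complex II, which has no subunit made in the mitochondrion and no X-linked gene among those tested, had no member below control after MSL2 RNAi. SdhB (CG3283, arm 2R), the iron-sulphur subunit, had 180 RPKM in MSL2 RNAi, 172 in CLAMP RNAi and 149 in control RNAi. SdhA (CG17246, arm 2R), the flavoprotein, had 55.0, 43.1 and 51.8 RPKM. The membrane anchors SdhC (CG6666) and SdhD (CG10219), both on arm 3R, had 158, 158 and 142 RPKM and 26.4, 25.6 and 26.0 RPKM. Only SdhA was lower in CLAMP RNAi by at least 1.2-fold, at a log2 ratio of −0.26, beside 16.1% of all tested genes.

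The X-linked share of summed subunit RPKM was smaller in MSL2 RNAi in every complex that has an X-linked gene. In complex I it was 26.7% in MSL2 RNAi, 30.3% in CLAMP RNAi and 30.5% in control RNAi. In complex III it was 23.6%, 32.6% and 34.7%, in complex IV 11.6%, 15.5% and 14.5%, and in complex V 2.03%, 2.61% and 2.94%. The sums hold only the genes that the naming rule catches, so in complexes III, IV and V they are not shares of the whole complex. Left out are, for example, RFeSP of complex III, levy of complex IV and blw of complex V. In control RNAi these autosomal genes had 199, 187 and 426 RPKM, and the X-linked sun of complex V, also left out, had 19.0. These are mRNA shares. Amounts of protein were not measured.

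**Figure D3:**
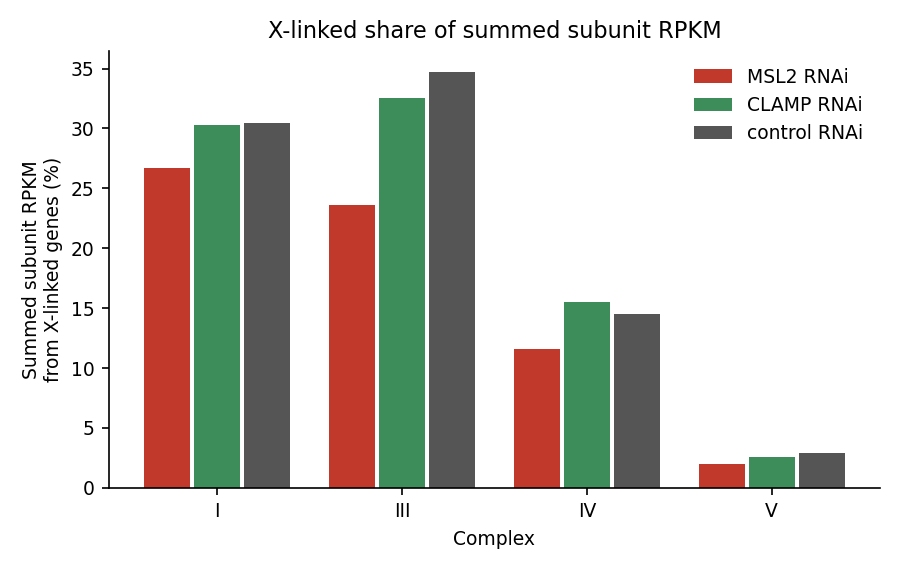
Share of the summed RPKM of the subunit genes of a complex that came from X-linked genes (percent), in the MSL2 RNAi, CLAMP RNAi and control RNAi libraries, 1 library each. In each of the 4 complexes the MSL2 RNAi bar is the shortest, for example 23.6% against 34.7% in control RNAi for complex III. Complex II has no tested X-linked gene and is not drawn. Subunits that the naming rule does not catch are not in the sums.

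Across all 66 subunit genes, 4 were at least 1.5-fold lower after MSL2 RNAi, beside 5.32% of all tested genes. These were the X-linked UQCR-14 and ND-ASHI and the autosomal ND-AGGG and ND-MLRQ, which are 2 of 52 beside 3.18% of all autosomal genes. A single gene, ATPsynbetaL, was at least 1.5-fold higher, beside 2.53% of all tested genes. At the smaller fold of 1.2, 7 of the 52 autosomal subunit genes were lower (12.7% of all autosomal genes) and 5 were higher (12.8%). The higher ones were SdhB, UQCR-C1 and the paralogs ATPsynbetaL, ATPsynepsilonL and COX6AL2. None of these counts stood far from the background.

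Among the lowest autosomal values were those of 3 genes close together on arm 3L. ND-AGGG (CG40002), an accessory subunit of complex I, had 165 reads in MSL2 RNAi, 182 in CLAMP RNAi and 332 in control RNAi. UQCR-11 (CG41623), a small subunit of complex III, had 1171, 955 and 1612 reads. ND-MLRQ (CG32230), named after a complex I subunit, had 584, 784 and 1042 reads. All 3 were lower in both knockdown libraries than in control, with log2 ratios after MSL2 and CLAMP RNAi of −0.98 and −0.85 for ND-AGGG, −0.46 and −0.76 for UQCR-11, and −0.83 and −0.41 for ND-MLRQ. In gene order, 2 tested genes separate ND-AGGG from UQCR-11 and 6 separate it from ND-MLRQ. The 10 tested genes nearest to each of them were low as well, with medians after MSL2 RNAi of −0.42, −0.49 and −0.43 for ND-AGGG, UQCR-11 and ND-MLRQ, and after CLAMP RNAi of −0.48, −0.55 and −0.45. These sets of neighbours overlap, ND-AGGG and UQCR-11 are in each other's set, and both comparisons share the control library, so they are not independent of each other. In MSL2 RNAi over CLAMP RNAi, without the control, ND-AGGG, UQCR-11 and ND-MLRQ were at −0.13, 0.30 and −0.41.

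On chromosome 4, ATPsynbeta was lower than control in both knockdown libraries, at log2 −0.21 after MSL2 RNAi and −0.21 after CLAMP RNAi. All 57 tested genes of that chromosome had a median of −0.34 in either comparison. In MSL2 RNAi over CLAMP RNAi, ATPsynbeta was at −0.0047, so its level was nearly the same in the knockdown libraries. ATPsynbeta had at least 66214 reads in every library, and its counting interval after MSL2 RNAi was 0.854 to 0.872 as a read ratio.

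**Figure D4:**
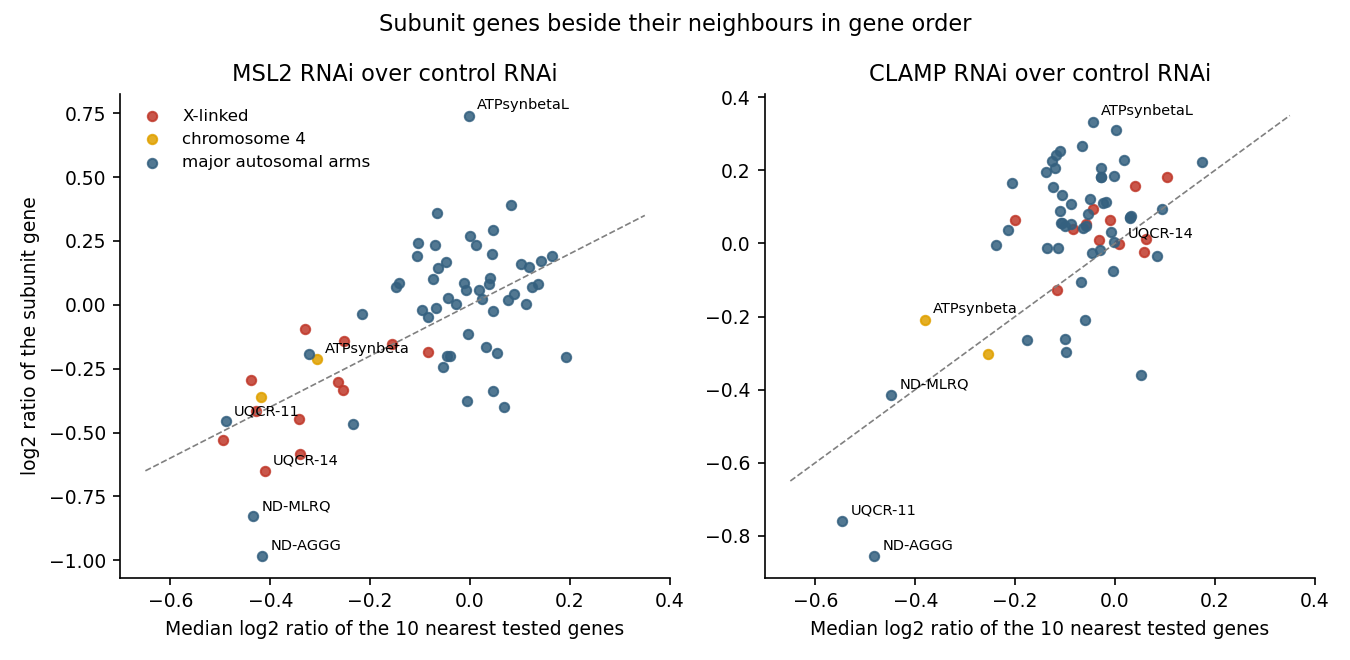
Log2 ratio of each subunit gene (vertical axis) against the median log2 ratio of the 10 nearest tested genes in gene order (horizontal axis), for MSL2 RNAi over control RNAi (left) and CLAMP RNAi over control RNAi (right). The dashed line marks equal values. X-linked genes scatter around it after MSL2 RNAi, and the 3L genes ND-AGGG, UQCR-11 and ND-MLRQ lie at the low end in both panels.

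Set against their own neighbours, X-linked subunit genes lay on both sides after MSL2 RNAi. After MSL2 RNAi 5 were above and 7 below the median of their 10 nearest tested genes, with differences from −0.24 to 0.23 and a median of −0.04. UQCR-14 and ND-ASHI were 0.24 and 0.24 below neighbours that were themselves at −0.41 and −0.34, whereas ND-75 was above neighbours at −0.33. After CLAMP RNAi 8 of the X-linked genes were above and 4 below their neighbours, and 42 of the 52 autosomal subunit genes were above. In MSL2 RNAi over CLAMP RNAi 2 X-linked genes were above and 10 below, and 11 autosomal ones above and 41 below. Such counts were not made over all tested genes, so whether they are particular to the subunit genes was not tested. Reads of overlapping genes could not be told apart, since the sources used here do not say whether the counting used strand. In the current annotation 36 of the 66 genes, 9 of the 12 X-linked ones among them, overlap another gene. ND-ASHI overlaps Fum1, the fumarase gene, and UQCR-14 overlaps CG32576.

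After CLAMP RNAi, the X-linked subunit genes did not stand below the autosomal ones as a group. Their log2 ratio to control had a median of 0.05 over the 12 X-linked genes (range −0.13 to 0.18) and of 0.07 over the 52 autosomal ones (−0.85 to 0.33), a difference of −0.02. Of the X-linked genes, 6 lay above and 6 below the autosomal median of their own complex. Both groups were above the corresponding medians of all tested genes, −0.05 on the X and −0.05 on the autosomal arms. Only ATPsyndelta among the 12 X-linked genes and 10 of the 52 autosomal subunit genes lay below the autosomal median, where 49.8% of all X-linked and 50% of all autosomal genes did. Across the 10 classes of level, the median ratio of all autosomal genes after CLAMP RNAi was higher in each class than in the one below. In the highest class it was 0.14 for 24 autosomal subunit genes and 0.04 for all autosomal genes, and in the class below 0.06 for 8 subunit genes and −0.01 for all. In the next class down it was −0.01 for 9 subunit genes and −0.03 for all. Lower classes hold at most 3 autosomal subunit genes each, with medians above and below those of all autosomal genes. The comparison shares its control library with the one above, so neither is an independent repeat of the other.

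Few subunit genes differed by much after CLAMP RNAi. At least 1.5-fold lower were 2 of 66 subunit genes, ND-AGGG and UQCR-11, beside 3.86% of all tested genes, and none was 1.5-fold higher, beside 1.5%. At the 1.2-fold mark 7 were lower (16.1% of all tested genes) and 3 higher (6.08%). None of the lower ones is X-linked, and they include those 2, ND-MLRQ, ND-15 (CG11455), SdhA and ATPsynepsilonL. The 3 higher ones were ATPsynbetaL, UQCR-Q (CG7580, arm 3L) of complex III, with 134 RPKM in CLAMP RNAi and 112 in control RNAi, and ND-PDSW (CG8844, arm 2L) of complex I, with 55.0 and 44.4 RPKM. The X-linked genes with the highest ratios were ND-18, at 0.18, and COX6B, at 0.16, for which the counting intervals of the read ratio were 1.08 to 1.19 and 1.09 to 1.15.

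Comparing the knockdown libraries with each other leaves the control out. In MSL2 RNAi over CLAMP RNAi the X-linked subunit genes had a median log2 ratio of −0.38 and the autosomal ones −0.06, a difference of −0.33, against −0.35 for all tested genes. Each of the 12 X-linked ones was below the autosomal median, as were 90.2% of all X-linked genes. Of the autosomal subunit genes 43 of 52 also lay below it (50% of all autosomal genes), and their median of −0.06 compares with 0.08 for all autosomal genes. UQCR-14 was the only one at least 1.5-fold lower (3.62% of all tested genes), at −0.65, and ATPsynepsilonL the only one 1.5-fold higher (4.24%), at 0.66. At least 1.2-fold lower were 9 of the 12 X-linked genes (51.5% of all X-linked genes) and 5 of the 52 autosomal ones (7.98%). Next lowest among X-linked genes outside complex I was COX6B, at −0.49.

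The autosomal subunit genes with long and with short transcripts had different medians. Most are short: 47 of the 66 are under 1000 bases, beside 1426 of the 7485 tested genes. After MSL2 RNAi the 14 autosomal subunit genes of 1000 bases or more had a median log2 ratio of 0.17, and the 8 under 500 bases had −0.23. Among all autosomal genes tested these medians were 0.03 and −0.10, with 0.01, 0.02 and 0.05 in the classes from 500, 600 and 700 bases. The class under 500 bases was thus the lowest among all autosomal genes too, by less than among the subunit genes. Spearman's rho of ratio with length was 0.381 over the 52 autosomal subunit genes and −0.137 over all 6062 autosomal genes. Both describe points that share libraries, and they cover unlike ranges of length. Of the 6062 genes 4883 have 1000 bases or more, against 14 of the 52. After CLAMP RNAi the subunit medians were 0.09 for 1000 bases or more and −0.13 under 500 bases, and those of all autosomal genes were −0.05 and −0.11. Long transcripts above control after MSL2 RNAi included ND-39 (CG6020, 1615 bases) at 0.23 and SdhB (1235 bases) at 0.27. Short ones below it included COX8 (409 bases) at −0.38 and UQCR-6.4 (CG14482, 295 bases) at −0.34. The classes hold few subunit genes, and the part of length in the X-linked values was not tested. Those under 500 bases include ND-MLRQ and UQCR-11, whose neighbours on arm 3L were also low. They were at −0.83 and −0.46 after MSL2 RNAi and at −0.41 and −0.76 after CLAMP RNAi. The part of that stretch in the medians of the short class was not tested. The X-linked genes were lower than control after MSL2 RNAi in every length class, for instance 3 of 3 at 1000 bases or more (median −0.41). Length is that of the transcript with the most reads, and a shorter one can hold nearly as many. In MSL2 RNAi, ND-ASHI had 1594 reads over 1322 bases and 1565 over 806 bases. COX7C had 1405 reads over 1173 bases and 1400 over 418 bases. The length class and RPKM of such genes depend on that choice.

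**Figure D5:**
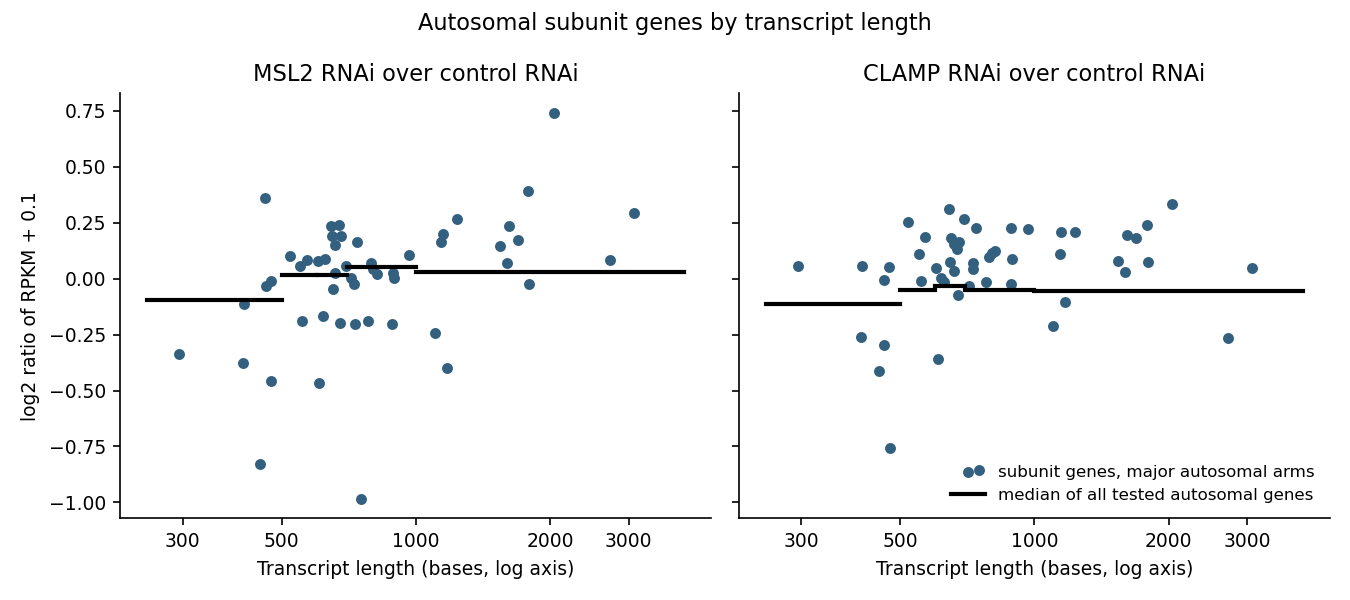
Log2 ratio of the 52 autosomal subunit genes (points) against transcript length on a log axis, for MSL2 RNAi over control RNAi (left) and CLAMP RNAi over control RNAi (right). Black lines are medians of all tested autosomal genes per length class. After MSL2 RNAi the points of 1000 bases or more have a median of 0.17 and those under 500 bases a median of −0.23.

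Of 19 genes with matching symbols below the level filter, 18 carry the suffix L of a like gene, a paralog of a subunit, and 8 had 0 reads in every library. The other, ND-B8 (CG15434) of complex I, had 4, 6 and 3 reads in MSL2, CLAMP and control RNAi. The tested gene nearest the filter was COX5BL, at a mean of 2.50 RPKM, and the nearest gene outside was COX4L, at 0.329 RPKM. Paralogs that passed the filter had low levels, between 2.04 and 11.3 RPKM in a library. ATPsynbetaL (CG5389, arm 3L) had 11.3 RPKM in MSL2 RNAi, 8.48 in CLAMP RNAi and 6.71 in control RNAi, where ATPsynbeta had 564, 566 and 654 RPKM. The pair thus lay on opposite sides of control, and ATPsynbetaL had read ratios of 1.68 (1.55 to 1.83) for MSL2 RNAi and 1.26 (1.16 to 1.38) for CLAMP RNAi. How the counting treated reads that match both copies is not stated in the sources used here. COX5BL had 118, 109 and 103 reads, ATPsynepsilonL had 102, 64 and 79, and COX6AL2 had 895, 756 and 728 reads. ATPsynepsilonL was at 3.27, 2.04 and 2.52 RPKM, where sun, the main epsilon gene, was at 9.67, 18.2 and 19.0 RPKM. The counting intervals of COX5BL (0.875 to 1.51) and ATPsynepsilonL (0.956 to 1.76) after MSL2 RNAi include a ratio of 1.

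Other X-linked genes of mitochondrial energy metabolism were lower after MSL2 RNAi about as often as X-linked genes in general. Over the lists of further subunits, electron carriers, citric acid cycle enzymes, carriers, assembly factors and regulators, 8 tested genes are X-linked, and all 8 stood below the autosomal median after MSL2 RNAi (their median was −0.49), beside 91.5% of all X-linked genes, and 4 of 8 did after CLAMP RNAi (−0.04), beside 49.8%. In the citric acid cycle 0 of 11 tested enzymes were 1.5-fold lower or higher in either comparison with control. Over all tested genes 5.32% were lower and 2.53% higher after MSL2 RNAi, and 3.86% and 1.5% after CLAMP RNAi, so a count of 0 among 11 is near the background. The X-linked ones, citrate synthase (kdn), isocitrate dehydrogenase Idh3a and fumarase Fum1, had 99.3, 63.6 and 59.7 RPKM in MSL2 RNAi against 140, 83.9 and 68.4 RPKM in control RNAi. The 8 autosomal ones had a median of 0.05, and the partner subunits of Idh3a, Idh3b and Idh3g, were at −0.06 and 0.11. The adenine nucleotide translocase sesB, also X-linked, had 330 RPKM in MSL2 RNAi, 394 in CLAMP RNAi and 439 in control RNAi, while the phosphate carrier Mpcp2 on arm 3L had 450, 390 and 374 RPKM. These carriers bring ADP and phosphate to the ATP synthase, and their mRNAs lay on opposite sides of control after MSL2 RNAi.

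Among 7 subunits whose symbols the rule does not catch, the X-linked sun was the only one 1.5-fold lower after MSL2 RNAi (5.32% of all tested and 14.9% of all X-linked genes), and none was after CLAMP RNAi (3.86% of all tested genes). The Rieske protein gene RFeSP (arm 2L) had 228, 245 and 199 RPKM in MSL2, CLAMP and control RNAi, and ox of complex III (arm 2R) had 51.0, 67.7 and 69.2 RPKM. Cytochrome c, the carrier between complexes III and IV, comes from Cyt-c-p (arm 2L), which had 626, 422 and 543 RPKM and so stood above control after MSL2 RNAi (0.21) and below it after CLAMP RNAi (−0.36). The 7 assembly factors stayed within 1.5-fold of control in both comparisons. The extremes were Surf1 at 0.32 after MSL2 RNAi and Sdhaf3 at −0.25 after CLAMP RNAi. Over all tested genes 5.32% were lower and 2.53% higher after MSL2 RNAi, and 3.86% and 1.5% after CLAMP RNAi. None among 7 is thus near the background. Of 10 regulators of nuclear mitochondrial genes, 1 was 1.5-fold lower after MSL2 RNAi, the X-linked ewg (erect wing), at 3.65 RPKM in MSL2 RNAi against 5.60 in control RNAi, beside 5.32% of all tested and 14.9% of all X-linked genes. The X-linked Myc had 45.2 RPKM in MSL2 RNAi against 67.0 in control RNAi. Mitf, on chromosome 4, had 14.7, 14.5 and 20.5 RPKM in MSL2, CLAMP and control RNAi. It was the only regulator at least 1.2-fold lower after CLAMP RNAi (−0.49), beside 16.1% of all tested genes. All 57 tested genes of chromosome 4 had a median of −0.34 in that comparison. The coactivator srl and the Ets factor Ets97D, both on arm 3R, were at 0.08 and 0.10 after MSL2 RNAi and at −0.01 and −0.04 after CLAMP RNAi.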

How the data were processed

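Each deposited file lists 22353 transcripts of 1 mRNA library with a read count, an RPKM value, the length of the transcript and a library total. The submitters' processing notes name Bowtie and dm3. The sources used here do not state which tool counted the reads, the aligner's version, the gene models used, whether strand was used, or whether the totals count reads or mates. The RPKM deposited by the authors equals the deposited count divided by length and library total, as recomputed. Reads in shared exons enter the counts of several isoforms, so the transcript with the most reads stood for each gene. Symbols, chromosome arms and gene order came from a RefSeq gene table of Release 6 plus ISO1 MT. It matched 13783 of 15139 genes by locus tag, including all 85 named here, and 749 by a unique synonym. No coordinates are given, since that build differs from the one of the files.

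Log2 ratios used RPKM plus a pseudocount of 0.1, which understates the change of low genes, and genes with a mean of at least 1 RPKM. Major autosomal arms are 2L, 2R, 3L and 3R. With 1 library per group no count model or test was run. Exact Clopper-Pearson 95% intervals of read ratios, scaled by library totals, cover counting error only. The alternatives tried are given with the closing observations. The script was tested on simulated counts. The fold of 1.2 and the 10 nearest neighbours were chosen after the data were seen. The members and lists were chosen with earlier results of these data known. The text names every X-linked subunit gene, every subunit gene at least 1.5-fold from control, and by complex the extremes of ratio and level, and others named were chosen after their values were seen. The listed symbols Nc73EF, Dlst, Ecsit, Ndufaf, Sdhaf4 and nos, which had no match, were not analysed here. Values of 1 subunit gene are not reported here. Tools were Python 3.11.15, pandas 2.3.3, numpy 2.4.6, scipy 1.17.1 and matplotlib 3.10.9.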

Additional observations from a re-analysis of the deposited data

How the results depend on the processing

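The alternatives were a pseudocount of 0.01 or of 1, dropping the level filter, raising it to 5 RPKM, the longest transcript of each gene, only transcripts of at least 400 bases, scaling to an autosomal median of 0, and upper-quartile scaling. Chosen after the data were seen were adding the 7 subunits with other symbols and leaving out the 4 like paralogs. Over these, the X-linked minus autosomal difference of the subunit genes after MSL2 RNAi stayed between −0.38 and −0.34, and no called value changed sign. Scaling to an autosomal median of 0 takes the same constant from every gene, so it could not move this difference. Taking the longest transcript gave the same −0.37. It could hardly move this difference either, since the transcript with the most reads was already the longest for almost every subunit gene. ATPsyngamma and COX5A, both autosomal, were exceptions. Of the values that answer a comparison, 200 moved little and 20 moved, mostly differences that rest on 1 X-linked gene in complex III, IV or V. The 200 include the differences under autosomal scaling, which were bound to stay, and values under the longest transcript, which could hardly move. A count was held to have moved little up to a 1.5-fold change. Without the level filter the difference in complex III was −0.51 (MSL2 over control), −0.12 (CLAMP over control) and −0.54 (MSL2 over CLAMP). At least 1.5-fold higher were then 2 genes for MSL2 RNAi and 1 for CLAMP RNAi, with 6 lower for MSL2 RNAi and 4 for CLAMP RNAi. At 5 RPKM, and likewise without the paralogs, complex IV had −0.22 (MSL2 over control) and −0.38 (MSL2 over CLAMP). The count of 1.5-fold lower genes after CLAMP RNAi was 1 at 5 RPKM, and without the paralogs 0 genes were 1.5-fold higher after MSL2 RNAi. With transcripts of at least 400 bases complex III had −0.76 (MSL2 over control) and −0.72 (MSL2 over CLAMP). Scaling to the autosomal median put the median of all subunit genes at 0.11 for CLAMP over control and −0.16 for MSL2 over CLAMP. With the other subunits added, complex V had −0.87 (MSL2 over control) and −0.63 (MSL2 over CLAMP), complex III −0.12 (CLAMP over control) and complex IV −0.38 (MSL2 over CLAMP). These moves follow from which genes enter the medians, or from the scaling. No paired analysis was possible because each group has 1 library.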
